A study of Mus musculus with 13 samples.

Results

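The genes described here are 10 members of the Wnt pathway and of the program it drives in the liver: the ligands Wnt2 and Wnt9b, the R-spondin Rspo3, the R-spondin receptor Lgr5, the receptor-removing ubiquitin ligases Rnf43 and Znrf3, and the target genes Axin2, Tbx3, Lect2 and Oat. They were taken by gene name from a count table of 54532 mouse genes. All 10 were found, and all 10 were among the 14280 genes that passed the filter on low counts. They were read in livers of 8-week-old wild-type C57 BL6 mice, averaging 20 g, with no transgene or gene deletion in any group. The injury was acute liver failure from D-galactosamine (500 mg/kg) and lipopolysaccharide (5 µg/kg), injected into the peritoneum and called GalN/LPS here. Livers were collected 6 h after it.

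The 4 groups were saline (n = 3 libraries), GalN/LPS (n = 3), dmPGE2 at 300 µg/kg given 1 h before GalN/LPS (called pretreated, n = 4) and dmPGE2 without the injury (n = 3). 16,16-dimethyl prostaglandin E2 (dmPGE2) is a long-lived analogue of prostaglandin E2. For dmPGE2 without the injury the labels give no interval before collection. The labels do not say that each library is its own animal, so p-values measure the spread between these libraries, which may be technical. Galactosamine uses up the uridine nucleotides of hepatocytes and so limits their RNA synthesis, which sensitizes them to tumor necrosis factor released in response to lipopolysaccharide.

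In the liver lobule, endothelial cells of the central vein release Wnt2, Wnt9b and Rspo3. Wnt ligands bind Frizzled receptors and their LRP co-receptors on the hepatocytes around the vein, which stabilizes beta-catenin and turns on the pericentral genes. R-spondin bound to LGR receptors draws away RNF43 and ZNRF3, which otherwise remove Frizzled from the cell surface. Axin2, Lgr5, Rnf43 and Znrf3 are themselves switched on by beta-catenin and feed back on the pathway.

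A pair of promoter stretches is shown because it sets a low-level feedback target beside a highly expressed secreted hepatocyte protein of the same program. They are the 250 bases before the start of Axin2 (chr11:108920099-108920348, plus strand) and of Lect2 (chr13:56548539-56548788, minus strand), from RefSeq on GRCm38.p6, printed in the direction of the gene. Capitals mark the core TCF/LEF motif CTTTGAT or its reverse complement ATCAAAG.
Axin2: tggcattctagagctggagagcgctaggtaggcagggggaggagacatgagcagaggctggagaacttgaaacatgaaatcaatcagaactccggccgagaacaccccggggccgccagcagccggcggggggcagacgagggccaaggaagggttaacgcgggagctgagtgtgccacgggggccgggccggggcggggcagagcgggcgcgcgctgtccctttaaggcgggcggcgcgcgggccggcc
Lect2: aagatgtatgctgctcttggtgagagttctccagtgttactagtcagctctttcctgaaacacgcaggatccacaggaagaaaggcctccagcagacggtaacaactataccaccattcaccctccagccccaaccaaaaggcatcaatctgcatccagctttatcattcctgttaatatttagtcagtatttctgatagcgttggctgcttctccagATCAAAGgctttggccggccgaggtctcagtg
The Lect2 window holds 1 match, ATCAAAG, at position -32 from the start, and the Axin2 window holds none. The sequence table held 7 windows of 300 bases for 6 of the 10 members (Axin2, Lect2, Oat, Wnt2, Wnt9b and Rnf43, the last with a pair of starts), and the Lect2 match was the only one among them. Of all 32851 windows of that length, 3.73% held the motif on either strand. Over the 300 bases, which include 50 after the start, GC content was 70.0% in the Axin2 window and 48.0% in that of Lect2. A match describes the letters of the window and is not evidence of a bound site.

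The members also differ in the 3′ UTR, the part of the mRNA read by RNA-destabilizing proteins at AU-rich elements. Lgr5 had 8 copies of the pentamer ATTTA in 1703 bases (4.70 per kb, above 91.2% of 19921 genes), Znrf3 had 12 in 3400 bases (3.53 per kb), and Oat had 3 in 692 bases (4.34 per kb). Lect2 had 0 in 377 bases. The median of all genes was 1.35 per kb, counted in the longest annotated 3′ UTR of each gene (GENCODE M21, GRCm38). The 5 members that were lower after injury ran from 1.23 per kb (Tbx3, below that median) to 4.70 (Lgr5), and the 3 that were higher from 1.48 (Wnt9b) to 3.43 (Wnt2), so the ranges overlapped.

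In saline livers the members lay far apart per unit length. The deposited FPKM (reads scaled by gene length and by library) averaged 217 ± 8.96 (SD, n = 3) for Oat, ornithine aminotransferase of pericentral amino acid metabolism. Lect2, a secreted hepatocyte protein, stood at 105 ± 29.4. The other 8 members were all near or under 3 FPKM: Tbx3, a transcription factor of pericentral hepatocytes, at 3.08 ± 1.64, Rnf43 at 2.01 ± 0.527, Znrf3 at 0.873 ± 0.0373, Axin2 at 0.755 ± 0.230, Rspo3 at 0.735 ± 0.224, Lgr5 at 0.339 ± 0.0288, Wnt2 at 0.312 ± 0.141 and Wnt9b at 0.176 ± 0.0783. Oat and Lect2 did not overlap in saline, nor did Lect2 and Tbx3, Rnf43 and Znrf3, or Rspo3 and Lgr5. Tbx3 and Rnf43 overlapped, as did Znrf3, Axin2 and Rspo3, and also Lgr5, Wnt2 and Wnt9b in neighbouring pairs. The low members rest on few reads, such as 44 counts of Wnt2 in the 3 saline libraries together.

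**Figure D1:**
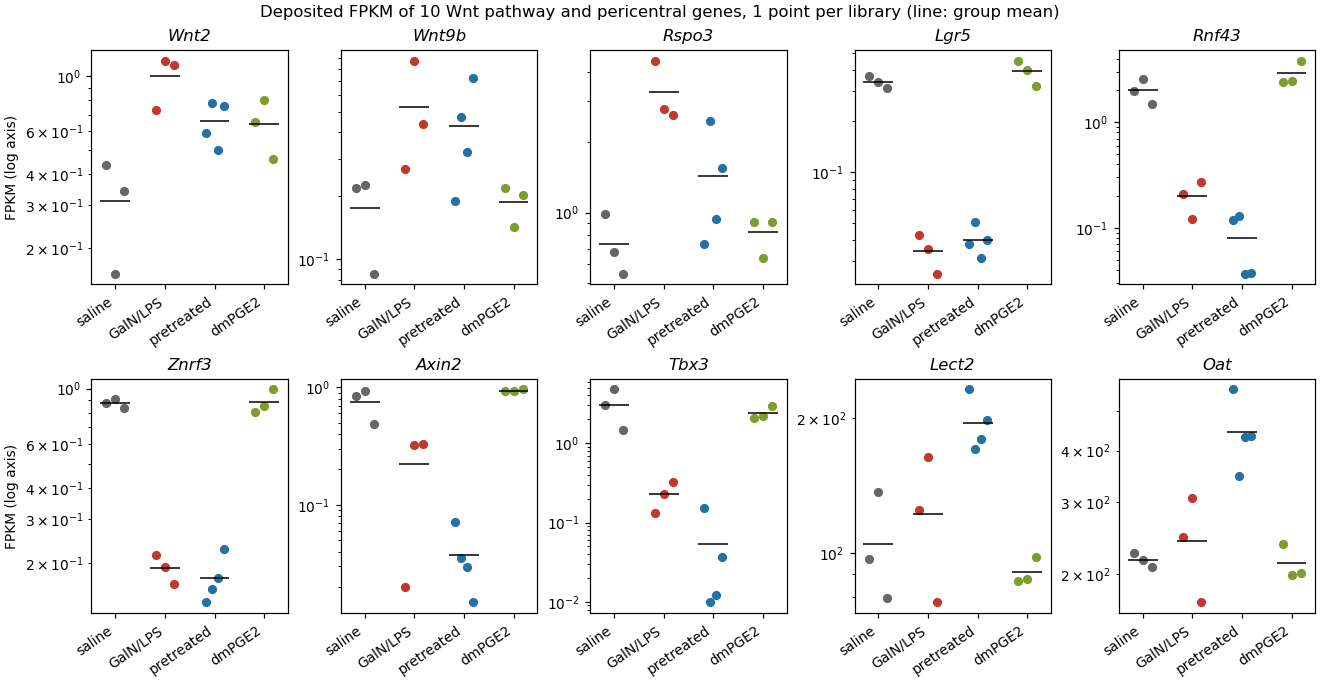
Deposited FPKM (log axis, separate scale in each panel) of the 10 members in each library of the 4 groups, with group means as lines. Wnt2, Wnt9b and Rspo3 are higher in GalN/LPS than in saline in every library, while Lgr5, Rnf43, Znrf3, Axin2 and Tbx3 are lower in every injured library. Lect2 and Oat are highest in the pretreated libraries.

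Libraries held 14829838 to 20777809 counts. Scaling factors (TMM, which sets libraries on a common scale through the bulk of their genes) were 0.683 to 0.830 in pretreated libraries, 0.904 to 1.14 in GalN/LPS, 1.16 to 1.28 with dmPGE2 and 1.17 to 1.18 with saline, and so differ by group. Values below are CPM (counts per fixed depth, on the TMM scale), and changes are log2 fold changes ± SE from edgeR's quasi-likelihood test, with Benjamini-Hochberg adjusted p over the 14280 genes and a threshold of 0.05. With library totals in place of TMM, the median log2 change of all genes moved from 0.02 to -0.15 in GalN/LPS against saline, from -0.10 to -0.61 in pretreated against GalN/LPS, from 0.14 to -0.54 in pretreated against saline and from -0.11 to -0.69 in the interaction. The share of calls that were higher moved from 44.7% to 8.30% in pretreated against GalN/LPS, from 53.5% to 19.8% in pretreated against saline and from 44.0% to 3.38% in the interaction. Hepatocyte markers summed to between 69000 and 221000 CPM in every library.

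After GalN/LPS the signals rose and the low-level targets fell. Of the 10 members, 3 were higher than in saline (Wnt2, Wnt9b and Rspo3) and 5 were lower (Lgr5, Rnf43, Znrf3, Axin2 and Tbx3), while Lect2 and Oat did not pass the test. Across all genes tested 52.9% passed, 27.4% higher and 25.6% lower, so a call by itself is common in this comparison. These 3 and 5 calls were also obtained with library totals, with DESeq2 and with its size factors.

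Wnt2, a ligand of central vein endothelium, stood at 0.963, 0.349 and 0.769 CPM in saline and at 1.59, 2.71 and 2.46 CPM in GalN/LPS. Every injured library lay above every saline library, a log2 change of 1.68 ± 0.38 (adjusted p = 0.00165, edgeR). Wnt9b, its partner ligand, stood at 0.963, 0.996 and 0.384 CPM in saline and at 1.17, 4.10 and 1.95 CPM in GalN/LPS. The groups did not overlap, but the lowest injured library was close to saline, and the log2 change was 1.60 ± 0.52 (adjusted p = 0.0169, edgeR). Without GalN/LPS library 2 the Wnt9b change was 0.98 and without saline library 3 it was 1.27, and neither passed.

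Rspo3, the R-spondin that sustains LGR signaling around the central vein, stood at 2.98, 2.04 and 1.68 CPM in saline. In GalN/LPS it stood at 13.4, 8.89 and 7.99 CPM. All 3 injured libraries were far above saline, with a log2 change of 2.17 ± 0.38 (4.49-fold; adjusted p = 0.000164, edgeR).

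Endothelial markers moved with these ligands, and markers of several other cell types did too. All 8 pan-endothelial markers tested (Pecam1, Cdh5, Tek, Tie1, Erg, Egfl7, Emcn and Eng) were higher in GalN/LPS, with a median log2 change of 1.81 against 0.02 for all genes, and none of the 8 was at 0. Their summed level was 64.1 to 78.8 CPM with saline and 66.6 to 83.3 with dmPGE2, against 295 to 413 after GalN/LPS and 129 to 236 in pretreated livers. All 4 other central vein markers (Cdh13, Thbd, Selp and Kit) were higher too, and their sum went from 4.28 to 5.03 CPM in saline to 73.3 to 125 CPM in GalN/LPS. The rise was not particular to these lists. All 12 sinusoidal endothelium, 11 of 12 stellate cell and fibroblast, 9 of 10 Kupffer cell and macrophage and 9 of 9 neutrophil markers were higher. Of 6 cholangiocyte markers 5 were higher and 1 lower, and of 11 hepatocyte markers 0 were higher and 3 lower. In whole liver RNA, a larger share of cells of a type and more RNA per cell cannot be told apart.

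Set against the endothelial markers of the same library, the ligands overlapped between saline and GalN/LPS. Rspo3 gave 21.3 to 43.9 counts per 1000 pan-endothelial counts with saline and 29.6 to 39.1 with dmPGE2, against 21 to 32.4 after GalN/LPS and 17.9 to 36 in pretreated livers. Wnt2 gave 5.44 to 14.2 with saline and 14.4 to 27 with dmPGE2, against 3.86 to 9.19 after GalN/LPS and 7.82 to 12.8 in pretreated livers. The ranges of all 4 groups overlapped for Rspo3 and Wnt9b, and for Wnt2 only the dmPGE2 range lay above the other 3. These ratios need no scaling between libraries and are given as a description, with no test.

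**Figure D2:**
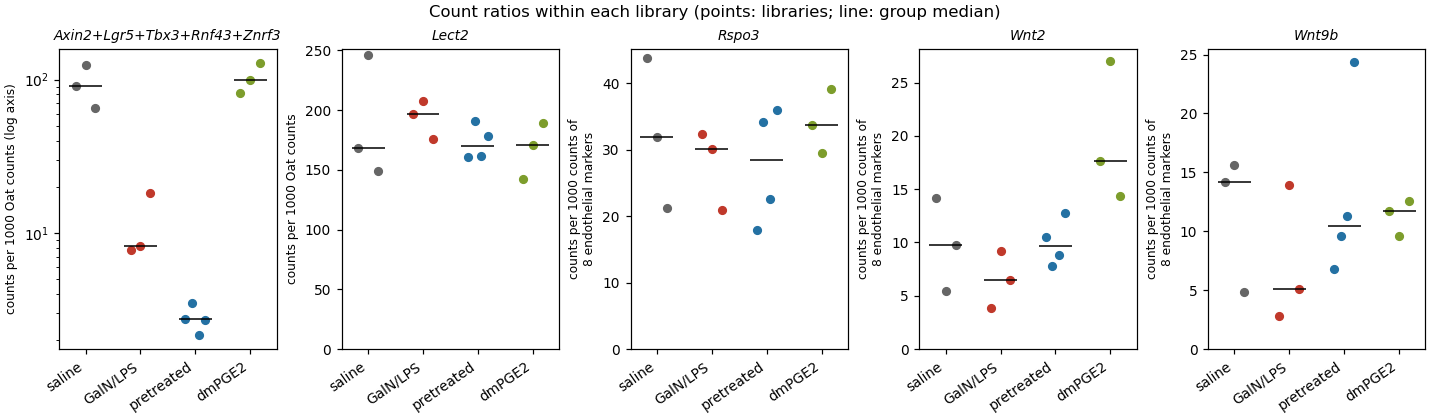
Ratios of counts within each library: the summed counts of 5 target and receptor genes and of Lect2 per 1000 Oat counts, and Rspo3, Wnt2 and Wnt9b per 1000 counts of 8 endothelial markers. The first panel has a log axis and steps down from saline (65.5 to 125) to GalN/LPS (7.78 to 18.1) to pretreated (2.15 to 3.49), while the Rspo3 ranges overlap in all 4 groups.

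Lgr5, the R-spondin receptor, fell from 3.71, 3.39 and 3.17 CPM in saline to 0.425, 0.378 and 0.256 CPM in GalN/LPS. The log2 change was -3.26 ± 0.31 (9.58-fold lower; adjusted p = 3.32e-07, edgeR), and 8 counts were the most in any GalN/LPS library. Rnf43 fell from 12.7, 16.4 and 9.75 CPM to 1.33, 0.819 and 1.74 CPM, a change of -3.29 ± 0.33. Znrf3, the second ligase, fell from 6.79, 7.03 and 6.53 CPM to 1.65, 1.58 and 1.28 CPM, a change of -2.17 ± 0.22. The receptor and both ligases that it counteracts were thus lower together, and no injured library overlapped saline.

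Axin2, a scaffold of the beta-catenin destruction complex that is widely read as a Wnt target, stood at 4.59, 4.98 and 2.69 CPM in saline. In GalN/LPS it stood at 0.106, 1.83 and 1.79 CPM, so library 1 lay far below the other 2, with 2 counts against 29 and 35. The log2 change was -1.73 ± 0.51 (adjusted p = 0.00938, edgeR). Tbx3 fell from 19.4, 30.9 and 9.70 CPM to 0.849, 1.58 and 2.10 CPM, a change of -3.72 ± 0.47 (13.2-fold lower; adjusted p = 6.87e-06, edgeR). Of these genes Tbx3 overlaps an antisense gene, Tbx3os1, with 667 counts against 2416, and the use of strand in counting was not given in the sources used here. Other members overlap a gene on the same strand: Rnf43 (1110028F11Rik, 258 counts against 2185), Oat (Fgfr2, 3514 against 150389) and Rspo3 (Gm20276, 3 against 1106).

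Lect2 and Oat, the members with high levels, did not follow. Lect2 stood at 87.6, 123 and 72.5 CPM in saline and at 110, 156 and 70.1 CPM in GalN/LPS, with a log2 change of 0.24 ± 0.24 and a 95% interval of -0.26 to 0.74. Oat stood at 522, 502 and 486 CPM in saline and at 559, 750 and 397 CPM in GalN/LPS, with a change of 0.18 ± 0.21 and an interval of -0.27 to 0.62. The groups overlapped for both, and the sign of neither was stable: the Oat change was -0.02 with library totals, and without GalN/LPS library 2 the changes were -0.07 for Lect2 and -0.08 for Oat.

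Within a library, the summed counts of Axin2, Lgr5, Tbx3, Rnf43 and Znrf3 were 65.5 to 125 per 1000 Oat counts in saline and 7.78 to 18.1 in GalN/LPS. In dmPGE2 libraries they were 81.7 to 129. The ratio of Lect2 to Oat stayed at 142 to 246 per 1000 over all 13 libraries, with all groups overlapping. The pericentral members therefore split into a set that fell and a pair that kept its ratio, also where no scaling enters.

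**Figure D3:**
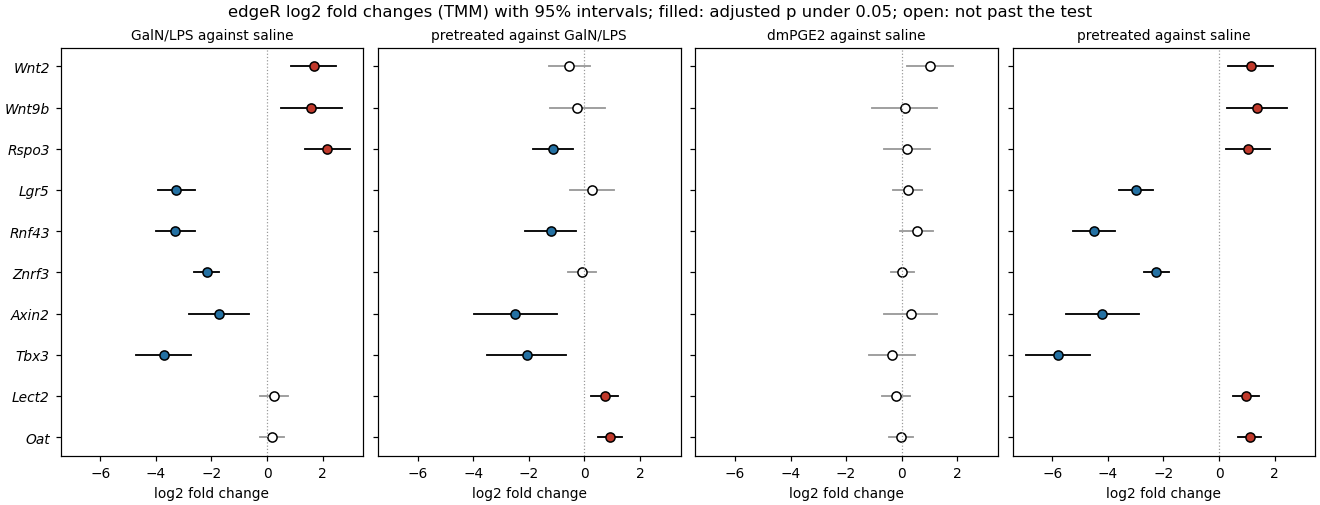
Log2 fold changes of the 10 members in 4 comparisons (points, edgeR on the TMM scale) with 95% intervals (lines); filled points have an adjusted p under 0.05. In GalN/LPS against saline 3 members are higher and 5 lower, and in dmPGE2 against saline none passes.

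The wider pathway was read from lists of its parts, which include the members that belong to them. Of all genes 27.4% were higher and 25.6% lower in this comparison. Of 19 Wnt ligands, 7 had enough counts to test, and after GalN/LPS 2 were higher (Wnt2 and Wnt9b) and 3 lower: Wnt5b (-2.69 ± 0.30), Wnt9a (-2.79 ± 0.76) and Wnt5a (-1.28 ± 0.46), ligands often linked to beta-catenin-independent signaling in the case of Wnt5a and Wnt5b. Wnt1, Wnt3a, Wnt8a, Wnt8b, Wnt10b and Rspo2 had 0 counts in all 13 libraries. Wls, which carries Wnt proteins to the cell surface, rose by 2.40 ± 0.33 on the log2 scale. Porcn, which attaches the lipid that Wnt proteins need, changed by 0.17 ± 0.27 and did not pass.

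Of 12 receptor genes tested 7 were lower, the member Lgr5 among them, and 1 higher. Their median log2 change was -0.90 against 0.02 for all genes. Lgr4, the main LGR of hepatocytes, fell with Lgr5, by 3.16 ± 0.20 on the log2 scale, and the Frizzled receptor Fzd8 fell by 2.24 ± 0.17. The co-receptors went apart, with Lrp6 at -1.39 ± 0.15 and Lrp5 at 0.99 ± 0.18 (both picked for mention after their values were seen).

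Among 5 genes tested from a list of Wnt inhibitors and related proteins, 3 rose (Frzb by 3.16 ± 0.51, Sfrp1 by 2.54 ± 0.44 and Dkk3 by 2.42 ± 0.48). Kremen1 did not pass, and Notum, a secreted enzyme that inactivates Wnt and is itself a beta-catenin target, was lower at -1.08 ± 0.16. Stellate cell and fibroblast markers, 11 of 12 of them higher, went from 143 to 225 CPM in saline to 599 to 1100 CPM in GalN/LPS. Their part in the rise of Frzb, Sfrp1 and Dkk3 was not tested.

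Inside the cell, 6 of 14 genes of the beta-catenin complex and relay were lower, the member Axin2 among them, and 0 higher, with a median of -0.23. Gsk3b, a kinase that marks beta-catenin for destruction, was at -1.02 ± 0.20, Axin1 at -0.79 ± 0.19 and Dvl3 at -0.83 ± 0.17. The mRNA of beta-catenin, Ctnnb1, did not pass (0.21 ± 0.17, adjusted p = 0.336, edgeR). Of 7 TCF/LEF factors and coactivators 3 were lower: Tcf7l2 (-0.84 ± 0.21), the main TCF of hepatocytes, Bcl9l (-0.95 ± 0.16) and Pygo2 (-0.58 ± 0.18).

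Of 9 feedback targets 6 were lower and 0 higher, with a median of -1.73. Beyond Axin2, Lgr5, Rnf43 and Znrf3 these were Notum and Sp5, a transcription factor induced by Wnt (-3.74 ± 0.74, named after its value was seen). The wider pericentral program was mixed. Of 16 pericentral genes that are not among the 10 members, 5 were lower, 2 higher (among them Cyp2c29 at 0.99) and 9 did not pass, with a median of -0.13.

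Cyp7a1, the rate-limiting enzyme of bile acid synthesis, fell by 3.83 ± 0.38, the dioxin receptor gene Ahr by 1.64 ± 0.18, and Glul, the glutamine synthetase of the innermost hepatocytes, by 1.00 ± 0.22. Cyp2e1 (0.17 ± 0.30) and Cyp1a2 (0.22 ± 0.25), the classic drug-metabolizing pericentral enzymes, did not pass. Of 16 periportal genes, set beside them, 5 were lower and 3 higher (Cyp2f2, Hsd17b13 and Hsd17b6), with a median of -0.25. Of these, G6pc, the last enzyme of glucose release, fell by 2.85 ± 0.17.

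**Figure D4:**
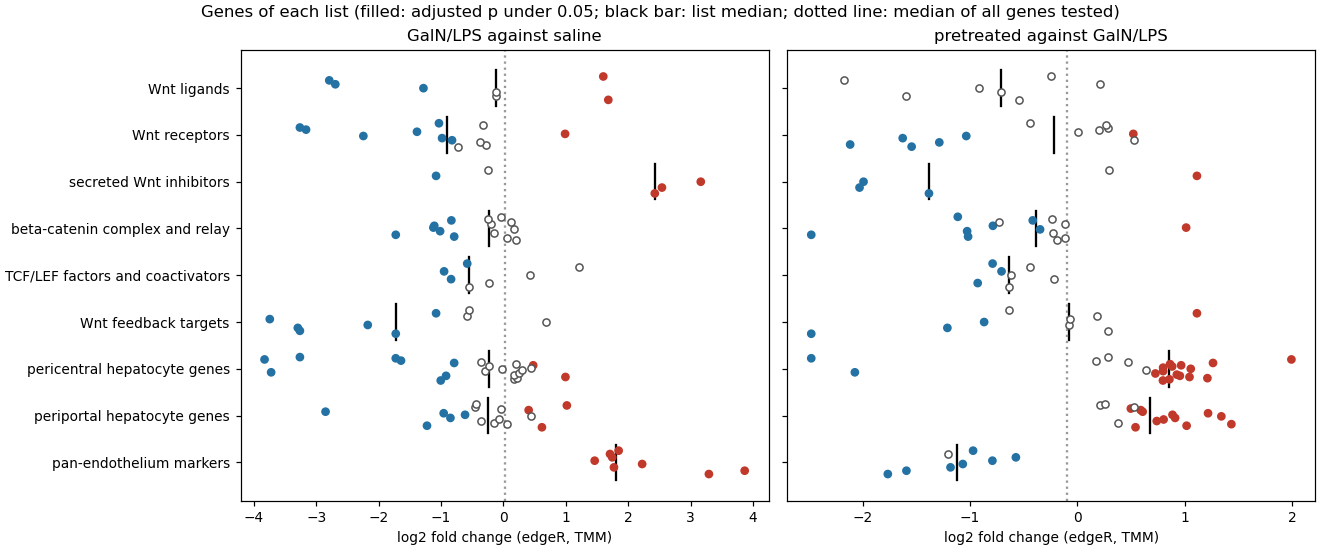
Log2 fold changes (edgeR, TMM scale) of every tested gene in 9 lists, for GalN/LPS against saline and for pretreated against GalN/LPS. Filled points pass the test, black bars are list medians, and the dotted line is the median of all genes (0.02 and -0.10). Feedback targets have a median of -1.73 in the left panel, and pericentral and periportal genes have medians of 0.86 and 0.67 in the right panel.

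After dmPGE2 given before GalN/LPS, none of the 5 genes that had fallen was higher than after GalN/LPS. Compared with GalN/LPS, 4 members were lower (Axin2, Tbx3, Rnf43 and Rspo3), 2 were higher (Lect2 and Oat), and 4 did not pass (Wnt2, Wnt9b, Lgr5 and Znrf3). Of all genes 54.5% passed, 24.4% higher and 30.1% lower. This comparison shares its GalN/LPS libraries with the one above. It is also the less firm of the 2: the number of lower members was 2 with only the 2 groups fitted, 2 without GalN/LPS library 1, and 2 without GalN/LPS library 3, which also left 1 higher (Oat).

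Axin2 stood at 0.397, 0.205, 0.167 and 0.0846 CPM in pretreated livers, from 5, 3, 2 and 1 counts. Its log2 change from GalN/LPS was -2.48 ± 0.70 (adjusted p = 0.00782, edgeR), but the groups overlapped, since GalN/LPS library 1 at 0.106 CPM lay among the pretreated. The Axin2 call was lost in 2 of 21 alternatives. Tbx3 stood at 1.03, 0.0683, 0.0834 and 0.254 CPM, with library 1 inside the GalN/LPS range and 1 or 3 counts in the others. Its change was -2.07 ± 0.67, a call that was lost in 5 of 22 alternatives. Among these were the fits without GalN/LPS library 3 (-1.74) or without pretreated library 2 (-1.68).

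Rnf43 stood at 0.794, 0.888, 0.250 and 0.254 CPM, again overlapping GalN/LPS, with a change of -1.21 ± 0.43 (adjusted p = 0.0268, edgeR). That call was lost in 8 of 22 alternatives. Among these were the fits without GalN/LPS library 1 (-1.20) or 3 (-0.95) and without pretreated library 3 (-0.98) or 4 (-0.99). Lgr5 stood at 0.397, 0.547, 0.334 and 0.423 CPM, with a change of 0.28 ± 0.38 and an interval of -0.51 to 1.08. Znrf3 stood at 1.11, 1.30, 1.42 and 1.86 CPM, with a change of -0.08 ± 0.23 and an interval of -0.57 to 0.41. Both overlapped the GalN/LPS libraries, with pretreated library 2 above them for Lgr5 and libraries 1 and 4 outside them on either side for Znrf3, and all lay far below saline.

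Lect2 was higher in all 4 pretreated libraries, at 217, 165, 170 and 189 CPM, than in any GalN/LPS library. Its change was 0.73 ± 0.22 (adjusted p = 0.0129, edgeR), which did not pass without GalN/LPS library 3 (0.47). Oat stood at 1350, 861, 1050 and 1060 CPM, again above every GalN/LPS library, with a change of 0.93 ± 0.20 (adjusted p = 0.0014, edgeR). With library totals the Lect2 change was 0.24 and did not pass. Hepatocyte markers summed to 141000 to 221000 CPM in pretreated and 91500 to 131000 CPM in GalN/LPS livers, and 9 of the 11 tested were higher and 1 lower (3 and 2 with library totals).

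Per 1000 Oat counts, the 5 fallen genes summed to 2.15 to 3.49 in pretreated livers, below all GalN/LPS libraries. Lect2 gave 161 to 191 per 1000 Oat counts, inside the range of saline. The sum of the 5 fallen genes was thus smaller against Oat after pretreatment than after GalN/LPS, in ratios that do not depend on the scaling between libraries. The ratio joins the higher Oat (log2 change 0.93) with the lower Axin2, Tbx3 and Rnf43. Lgr5 (0.28) and Znrf3 (-0.08) did not pass against GalN/LPS on their own.

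Of the 3 signals, Rspo3 alone was lower than in GalN/LPS. It stood at 2.30, 8.06, 3.00 and 4.99 CPM, with pretreated library 2 inside the GalN/LPS range, and the change was -1.12 ± 0.34 (adjusted p = 0.011, edgeR). It did not pass without GalN/LPS library 1 (-0.86). Wnt2 stood at 1.35, 1.84, 1.17 and 1.78 CPM (-0.54 ± 0.34) and Wnt9b at 0.873, 2.25, 1.5 and 3.38 CPM (-0.25 ± 0.46), and neither passed. With library totals Wnt2 passed as well, at -1.03. Of 8 pan-endothelial markers 7 were lower, with a median of -1.12, and all 4 of Cdh13, Thbd, Selp and Kit were lower, by 1.52 to 1.86. All 12 sinusoidal endothelium and all 10 Kupffer cell and macrophage markers were lower too. So were 11 of 12 stellate cell and fibroblast, 8 of 9 neutrophil and 3 of 6 cholangiocyte markers, with 0 higher in any of these lists.

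In the lists of the wider pathway, members included, 5 of 12 receptors were lower and 1 higher (Lrp5, 0.52 ± 0.17), with a median of -0.22. Of all genes 30.1% were lower and 24.4% higher. Fzd4 was at -2.12 ± 0.24, Fzd7 at -1.63 ± 0.23 and Fzd8 at -1.04 ± 0.19. The 3 genes of the inhibitor list that had risen were lower (Sfrp1 at -2.03 ± 0.41, Frzb at -1.99 ± 0.44 and Dkk3 at -1.38 ± 0.43), and Wls was at -1.49 ± 0.30. Of the 14 genes of the beta-catenin complex and relay 7 were lower, the member Axin2 among them. Others were Axin1 (-1.02 ± 0.19), Gsk3b (-1.03 ± 0.20) and Tnks2, a tankyrase that marks axin for destruction (-1.11 ± 0.19). Btrc, a part of the ligase that marks beta-catenin, was the 1 higher gene at 1.01. With library totals 13 of the 14 were lower and 0 higher, on a scale where 47.6% of all genes were lower and 4.31% higher, and Lrp5 did not pass (0.016). Ctnnb1 did not pass (-0.19 ± 0.16), though with library totals it was lower at -0.71.

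Of 9 feedback targets 3 were lower (Axin2, Rnf43 and Nkd1, the last at -0.87 ± 0.29) and 1 was higher, Notum at 1.11 ± 0.15. Beside these, 13 of the 16 other pericentral genes were higher and 0 lower, with a median of 0.87 against -0.10 for all genes. Cyp7a1 rose by 1.99 ± 0.34, Prodh by 1.26 ± 0.20, Cyp1a2 by 1.21 ± 0.24, Cyp2e1 by 0.86 ± 0.29 and Glul by 0.80 ± 0.21. Periportal genes rose too, 12 of 16, with a median of 0.67, among them Cps1 of the urea cycle at 1.34 ± 0.27 and Pck1 of gluconeogenesis at 1.22 ± 0.17. With library totals 6 of the 16 other pericentral and 3 of the 16 periportal genes were higher and 0 lower, with medians of 0.38 and 0.17, while the median of all genes was -0.61. Glul (0.29) and Cyp2e1 (0.37) did not pass on that scale.

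Pretreated livers were also set against saline, a comparison that shares libraries with both above. All 10 members passed, 5 higher and 5 lower, where 65% of all genes passed, 34.8% higher and 30.2% lower. Tbx3 was at -5.79 ± 0.54, Rnf43 at -4.51 ± 0.35, Axin2 at -4.20 ± 0.62, Lgr5 at -2.98 ± 0.29 and Znrf3 at -2.25 ± 0.21, with no overlap for any of these 5 genes. The 5 lower calls were made under every alternative tried.

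The 5 higher calls were less secure. Oat was at 1.10 ± 0.20, Lect2 at 0.97 ± 0.23, Wnt2 at 1.13 ± 0.38, Wnt9b at 1.35 ± 0.51 and Rspo3 at 1.04 ± 0.37, and the groups overlapped for Wnt9b and Rspo3. With library totals only Oat was still higher. The number of higher members was 3 without saline library 2, without saline library 3 or without pretreated library 2. Glul did not pass (-0.21 ± 0.21), while Cyp1a2 was higher by 1.43 ± 0.25 and Cyp2e1 by 1.03 ± 0.29, and Cyp7a1 was still lower at -1.84 ± 0.32.

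In uninjured livers dmPGE2 moved no member past the test. No gene of the 14280 had an adjusted p under 0.05 with edgeR (0% called), although 1990 had an unadjusted p under 0.05, and DESeq2 called 277 genes, none of them a member. Wnt2 came closest among the members, at 1.46, 1.80 and 1.01 CPM against 0.963, 0.349 and 0.769 CPM in saline. The groups did not overlap, and the log2 change was 1.01 ± 0.39 with an interval of 0.19 to 1.84 (adjusted p = 0.261, edgeR).

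Axin2 stood at 5.10, 5.05 and 5.15 CPM, above all 3 saline libraries, with a change of 0.32 ± 0.46 and an interval of -0.65 to 1.28. Rnf43 stood at 15.8, 15.8 and 24.5 CPM (0.53 ± 0.27, interval -0.05 to 1.11). The changes of the other 7 members lay between -0.34 (Tbx3) and 0.21 (Lgr5), and their groups overlapped saline. The intervals leave room for changes in either direction in all members but Wnt2. They are not adjusted for the number of genes, and Wnt2 did not pass after adjustment (adjusted p = 0.261, edgeR).

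Whether dmPGE2 acted differently in injured and uninjured livers was tested as an interaction, the effect of dmPGE2 with GalN/LPS less its effect without. It passed for 5 members where 35% of all genes passed (15.4% higher and 19.6% lower). It was negative for Axin2 (-2.80 ± 0.84), Rnf43 (-1.74 ± 0.51) and Wnt2 (-1.56 ± 0.52), and positive for Oat (0.95 ± 0.29) and Lect2 (0.93 ± 0.32). Rspo3 (-1.30 ± 0.52), Tbx3 (-1.73 ± 0.78), Wnt9b, Lgr5 and Znrf3 did not pass. Without GalN/LPS library 3 none of the 10 passed. Over 21 alternatives the call was lost in 12 for Lect2, 7 for Wnt2, 5 for Axin2, 4 for Rnf43 and 3 for Oat. Rspo3 newly passed in 6 of the 21 and Tbx3 in 4, so the split between members that passed and those that did not is not firm. The interval between dmPGE2 and collection may differ between the groups, which this term takes no account of. Ctnnb1 was at -0.79 ± 0.24 and Cyp1a2 at 1.61 ± 0.35 in the same test, both past it. In dmPGE2 against saline, Ctnnb1 was at 0.60 ± 0.17 (adjusted p = 0.161, edgeR), with no overlap of the groups. Cyp1a2 was at -0.40 ± 0.25 there (adjusted p = 0.504, edgeR), and neither passed. Ctnnb1 did not pass in pretreated against GalN/LPS either, so its term joins a higher value without injury with a lower one in injured livers.

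Over the 13 libraries the members fell into blocks. The log2 CPM of Lgr5, Rnf43, Znrf3, Axin2 and Tbx3 correlated with each other at Pearson's r of 0.81 to 0.98, Lect2 with Oat at 0.93, and Wnt2, Wnt9b and Rspo3 with each other at 0.59 to 0.72. These values describe 13 libraries that share the contrast between injured and uninjured groups. Among 8882 genes with at least 5 CPM, those most like Axin2 included Mplkip and Depdc7 (r = 0.96 for both). Those most like Rspo3 were Smad6, Ms4a4d and Plvap, an endothelial membrane protein (r = 0.97 for each). Those most like Wnt2 included Pggt1b and Rbm45 (r = 0.90 and 0.86). While 219 genes exceeded r = 0.9 with Axin2 and 123 with Rspo3, 0 did so with Wnt2.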

How the data were processed

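RNA of mouse liver was sequenced in 13 NEBNext Ultra libraries, each made from 1 µg of total RNA, per the labels. The authors deposited raw read counts per Ensembl gene and FPKM for the same libraries. The submitters' processing notes name HISAT2 and GRCm38/mm10. Read counter, annotation and strand setting were not given in the sources used here. The deposited FPKM sum to 341621 to 681621 per library and follow a scale close to TMM, so they are no independent check of scaling. Columns named ALF were taken as GalN/LPS, since the other columns name saline or dmPGE2; the series text speaks of AILI mice, and the sample labels were followed.

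All 13 libraries entered 1 fit by group in edgeR 4.0.16 (R 4.3.3), with filterByExpr, TMM and the quasi-likelihood F test, two-sided, adjusted by Benjamini-Hochberg over 14280 genes, which held 99.9% of counts. The fit was tested on simulated data in which few genes changed and all genes had the same spread, so it is no check of the scaling between groups. Alternatives were DESeq2 1.42.0, its size factors, library totals, no filter, limma 3.58.1 on log2(FPKM + 0.1) or log2(FPKM + 1), only the groups compared, a replicate block and each library left out. Text genes were the 10 members, Glul, Cyp2e1, Cyp1a2, Ctnnb1 and up to 3 genes per list with the smallest adjusted p in each of the first 2 comparisons; others are named as exceptions or to complete a count of 5 or fewer, and a few genes under this rule are not reported here. Like-pattern genes had the highest Pearson's r of log2 CPM (prior count 2). Members and lists were chosen with earlier results of these data known. Replicate libraries were compared, and none was a copy of another. RefSeq promoter windows and GENCODE M21 transcripts were searched for motifs.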

Additional observations from a re-analysis of the deposited data

Results flagged for a closer look

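A difference in the effect of dmPGE2 between injured and uninjured livers, by an interaction term in edgeR, drew attention to 5 members. On the log2 scale it was -2.80 for Axin2, -1.74 for Rnf43, -1.56 for Wnt2, 0.95 for Oat and 0.93 for Lect2. In uninjured livers Wnt2 was 1.01 higher with dmPGE2 than with saline, and in injured livers it was at -0.54, neither past its own test. Axin2 in pretreated livers rests on 11 counts in 4 libraries. With library totals the terms of Lect2 (0.37) and Oat (0.38) did not pass, and without GalN/LPS library 3 none of the 5 did. Over all 21 alternatives the Lect2 call was lost in 12, more than it was kept (9), and that of Wnt2 in 7, Axin2 in 5, Rnf43 in 4 and Oat in 3.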

How the results depend on the processing

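Over the alternatives tried for the 10 members in 5 comparisons, 973 of 1088 values kept their direction and side of the threshold, 78 no longer passed, 11 newly passed and 26 changed sign. Of 1623 values of the other named genes, 1577 were kept, 37 no longer passed, 4 newly passed and 5 changed sign. In GalN/LPS against saline, 2 or 3 higher and 5 lower members were called under every alternative.

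Counts of members called moved as follows, and beyond the fewer samples of some fits the cause was not tested. With library totals, pretreated against GalN/LPS had 1 higher, pretreated against saline 1 higher, and the interaction 0 higher and 5 lower. With only the groups compared, pretreated against GalN/LPS had 2 lower and pretreated against saline 2 higher. Pretreated against GalN/LPS had 1 lower with limma on log2(FPKM + 1), and 1 lower with log2(FPKM + 0.1) without a filter. Pretreated against saline had 3 higher with each of the 3 limma fits. The interaction had 5 lower with no filter on counts, 1 higher with limma and either pseudocount, and 0 higher and 1 lower with limma and no filter. For dmPGE2 against saline, all genes called were 277 with DESeq2, 461 with no filter, and 1, 5 and 8 with limma on log2(FPKM + 0.1), log2(FPKM + 1) and log2(FPKM + 0.1) with no filter.

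Equal replicate numbers showed no sign of pairing: of 18 same-numbered pairs, 0 correlated above 0.1, and 3 of 13 libraries correlated best with their own number. With so few libraries per group, a shared animal or batch could be missed. With a replicate block, pretreated against GalN/LPS had 2 lower members, pretreated against saline 2 higher and the interaction 0 lower.

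Signs changed for values that did not pass in the main analysis. Some were near 0 and others were not. Wnt9b in the interaction went from -0.36 to as high as 0.26, and Tbx3 in dmPGE2 against saline from -0.34 to as high as 0.12. In GalN/LPS against saline, library totals gave -0.021 for Oat and -0.042 for Cyp2e1. In pretreated against GalN/LPS they gave -0.21 for Lgr5, and in the interaction -0.49 for Lgr5, where limma gave -0.095, -0.046 and -0.095 in the order of fits above. In dmPGE2 against saline, Oat was at 0.051 with library totals and 0.0082 with no filter, and Znrf3 at -0.0014 with only the groups compared.

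With each library left out in turn, members called in pretreated against GalN/LPS ranged from 1 to 2 higher and 2 to 4 lower, in pretreated against saline from 3 to 5 higher, and in the interaction from 0 to 2 higher and 0 to 4 lower. Genes called with dmPGE2 against saline ranged from 0 to 27. Log2 changes in GalN/LPS against saline ranged from -0.075 to 0.47 for Lect2, -0.082 to 0.26 for Oat, -0.020 to 0.36 for Ctnnb1, -0.25 to 0.34 for Cyp2e1 and -0.060 to 0.44 for Cyp1a2. In pretreated against GalN/LPS they ranged from -0.61 to 0.37 for Wnt9b and -0.23 to 0.018 for Znrf3. In dmPGE2 against saline the ranges were -0.11 to 0.026 for Oat, -0.67 to 0.12 for Tbx3, -0.35 to 0.041 for Lect2, -0.21 to 0.32 for Wnt9b and -0.058 to 0.083 for Znrf3. In the interaction they were -0.72 to 0.26 for Wnt9b and -0.13 to 0.24 for Lgr5. Axin2, Tbx3, Rnf43 and Lgr5 have few counts per injured library, which limits their fold changes.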
